A study of Caenorhabditis elegans with 3 samples.

Results

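The ceh genes are homeobox genes of the nematode Caenorhabditis elegans, where ceh stands for C. elegans homeobox. All protein-coding genes of the Ensembl WBcel235 annotation named ceh- plus a number were taken, except the Hox gene ceh-13, which gave 62 of 19973 protein-coding genes. The data were lists of genomic regions from chromatin immunoprecipitation sequencing (ChIP-seq), a method that enriches DNA attached to a chosen protein, here EGL-27. The 3 biological replicates of whole first-stage (L1) larvae formed 1 group, with 1 control shared by the replicates and no second condition. The animals were of strain OP177, with genotype unc-119(ed3) III; wgIs177, were mixed in sex, of unknown age, and carried a transgene for EGL-27 with GFP and FLAG tags at its C-terminus. The promoter of that transgene is not given in the sources used here, and a strain without the tag was not analysed here. A gene was counted when the summit of a region, its highest point, lay in the gene body or up to 5 kb upstream of the start. In whole larvae, binding in few cells and weaker binding in many cells cannot be told apart.

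Homeobox genes encode transcription factors that bind DNA through a homeodomain, and they specify body regions, tissues and neuron types during development. EGL-27 belongs to the metastasis-associated (MTA) family of chromatin proteins, whose vertebrate members are part of the NuRD histone deacetylase complex. In worms egl-27 is known for roles in cell polarity, cell migration and the patterning that depends on Hox genes. The ceh genes fall into homeodomain classes with different partners, and 40 of the 62 were placed in a class from textbook knowledge, while 22 were left unclassed.

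The sequences below lie at the strongest regions of 6 ceh genes and are shown as examples of the sequence at these regions. They are plus-strand WBcel235 (ce11) sequence from RefSeq, 5′ to 3′, 100 bp either side of the summit in the list of the 3 replicates together. For ceh-38, whose summit lies in its 5' UTR, the 127 bases of the region upstream of the annotated start are given, which leave out the summit and the 1 GATA site counted within 100 bp of it. The window of ceh-5, which had the second highest region, held 1 GAGAGA and is not printed. Capitals mark GAGAGA or its reverse complement TCTCTC, except in the ceh-89 line, where they mark the 72 bases of a tRNA gene on the other strand. The stretches at ceh-38, at chrII:6951399-6951525, and ceh-20, at chrIII:6978951-6979151, held no GAGAGA. Those at ceh-32, at chrV:11708926-11709126, and ceh-24, at chrV:13808541-13808741, held 1 each, and that at ceh-43, at chrIII:4451143-4451343, held 2. The stretch at ceh-89 is chrX:14136885-14137085.
ceh-38: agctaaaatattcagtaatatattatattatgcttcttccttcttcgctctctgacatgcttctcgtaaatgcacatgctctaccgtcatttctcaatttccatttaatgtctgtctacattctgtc
ceh-20: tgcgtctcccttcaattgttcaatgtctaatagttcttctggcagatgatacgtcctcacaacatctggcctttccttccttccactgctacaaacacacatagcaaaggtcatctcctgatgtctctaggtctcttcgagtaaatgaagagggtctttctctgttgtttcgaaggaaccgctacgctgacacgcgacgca
ceh-32: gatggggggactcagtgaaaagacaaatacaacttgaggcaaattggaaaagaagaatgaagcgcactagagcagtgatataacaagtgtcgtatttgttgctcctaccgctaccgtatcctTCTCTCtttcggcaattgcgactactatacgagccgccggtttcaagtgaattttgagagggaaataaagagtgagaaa
ceh-43: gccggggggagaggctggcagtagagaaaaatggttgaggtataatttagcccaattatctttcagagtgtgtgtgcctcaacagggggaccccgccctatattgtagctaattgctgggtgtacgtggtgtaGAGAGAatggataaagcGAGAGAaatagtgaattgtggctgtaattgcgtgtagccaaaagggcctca
ceh-24: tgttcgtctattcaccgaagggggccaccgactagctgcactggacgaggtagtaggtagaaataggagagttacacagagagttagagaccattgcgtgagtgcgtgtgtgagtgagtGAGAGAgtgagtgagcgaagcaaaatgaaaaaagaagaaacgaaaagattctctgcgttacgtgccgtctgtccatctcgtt
ceh-89: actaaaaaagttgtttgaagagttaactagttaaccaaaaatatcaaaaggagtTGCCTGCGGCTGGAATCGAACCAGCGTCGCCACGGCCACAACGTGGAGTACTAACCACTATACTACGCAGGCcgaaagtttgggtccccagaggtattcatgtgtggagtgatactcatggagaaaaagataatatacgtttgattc

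In all, 3 ceh genes, ceh-38, ceh-5 and ceh-20, had a region in the authors' list of 524 regions that passed their threshold on the irreproducible discovery rate (IDR), a measure of agreement between replicates. That was 4.84% of the ceh genes, beside 4.11% of all protein-coding genes with the same windows. The other 33 homeobox genes examined, such as unc-62, vab-3 and unc-86, had 0 in the IDR list. These 33 were a list of chosen names that left out the Hox genes, so they do not stand for all other homeobox genes. Per length of gene window, the IDR list held 5.69 regions per Mb at ceh genes and 5.52 per Mb at all protein-coding genes. At this level the ceh genes held strong EGL-27 regions about as often as other genes did. No test was made of this, since the study has 1 group and the list of genes was chosen with earlier results known.

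The relaxed list of the 3 replicates together, here called the pooled list, held 30000 regions including background, and its 524 highest were the IDR list. Among its 1000 highest regions 4 ceh genes had a summit, the added gene being ceh-32 (6.45%, beside 7.32% of all genes). Among the 5000 highest there were 19 (30.6%, beside 29% of all genes), and in the whole list 56 (90.3%, beside 86.9%). At the 2000 highest the share was 8.06% for ceh genes and 13.6% for all genes, and at the 10000 highest it was 58.1% and 49.6%. The ceh genes were thus below the background at the 1000 and 2000 highest, and above it at the other depths. Their windows were longer, with a median of 7735 bp beside 7027 bp for all genes. The other 33 homeobox genes had 12 members (36.4%) among the 5000 highest and all 33 in the whole list. These shares do not allow for window length, which reached 36398 bp at zfh-2, beside the median of 7027 bp for all genes. Per 10 kb of window the 33 genes had 3.33 pooled regions, beside 3.01 for all genes. Their highest pooled signal was 20.6 at unc-62, the Meis-type partner of PBC homeodomain proteins.

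**Figure D1:**
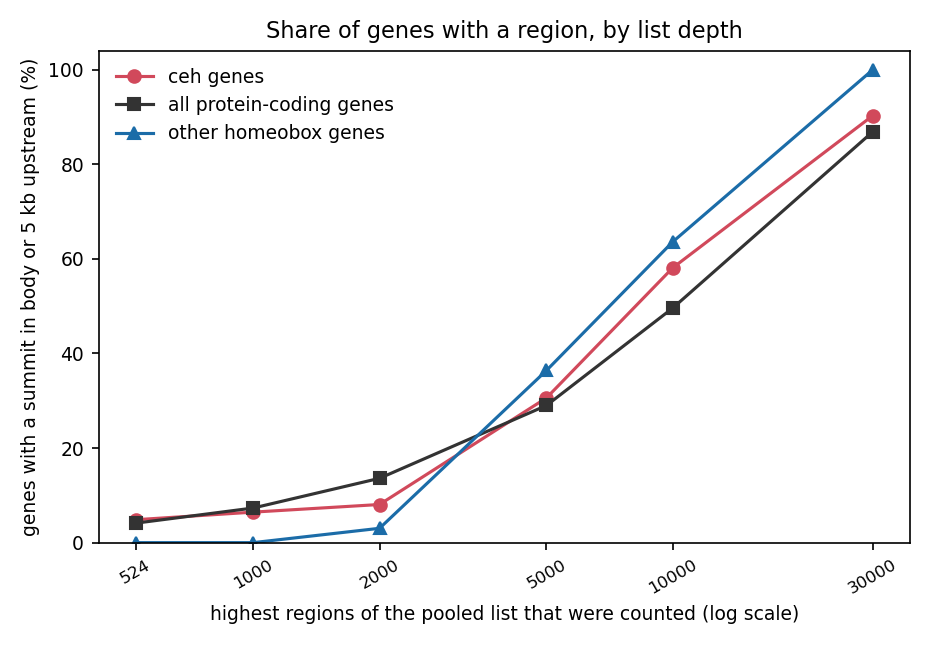
The y axis gives the percentage of genes with a summit in the body or 5 kb upstream, and the x axis (log scale) how many of the highest regions of the pooled list were counted. Lines join ceh genes (62), all protein-coding genes (19973) and other homeobox genes (33); the ceh line runs near that of all genes, at 4.84% beside 4.11% at 524 regions and 30.6% beside 29% at 5000.

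The signal is the authors' value for each region, called against the shared control. What it measures and its scale are not stated, so signals are compared here only among regions of the same list. In the pooled list the signal ran from 5.60 to 166, with a lower limit of 28.9 in the IDR list. Over the 56 ceh genes with a region, the highest signal per gene had a median of 9.88 and quartiles of 8.48 and 12.9. Over all protein-coding genes with a region the median was 9.89 and the quartiles were 7.82 and 13.5. The highest region of the median ceh gene stood at rank 8287, and that of the median gene at rank 8288. The median ceh gene thus stood at the same place in the pooled list as the median gene, while the quartiles of the ceh genes lay closer together.

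**Figure D2:**
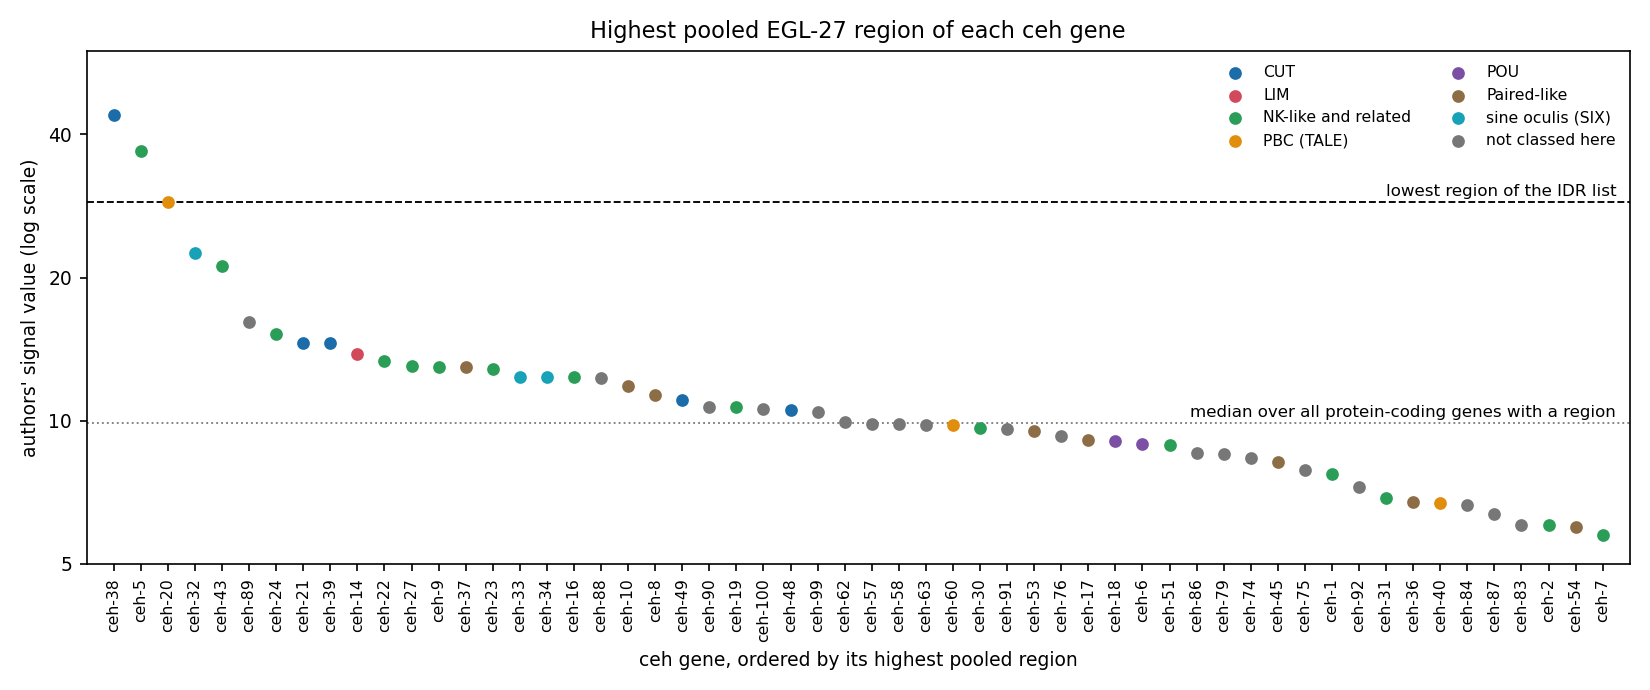
Each point is the highest pooled region of 1 ceh gene, with the authors' signal value on the y axis (log scale) and the genes in descending order on the x axis, coloured by homeodomain class. The 3 highest genes lie on or above the dashed line at the lowest IDR region (28.9), and the dotted line is the median of all protein-coding genes with a region (9.89).

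The highest ceh region was at ceh-38, a CUT-class gene of the ONECUT type, whose members in worms act broadly in neurons. The gene lies at chrII:6951526-6955409 on the plus strand, and the pooled summit was 51 bp inside it, in the 5' UTR. Its signal was 43.9, rank 175, in the pooled list. At this summit the signal was 10.3 in replicate 1 (rank 499 of 30000), 6.95 in replicate 2 (rank 6646 of 30000) and 23.02 in replicate 3 (rank 77 of 13516). Replicates 1 and 3 put the region among their 524 highest, whereas replicate 2 ranked it far lower. The start of malt-1, the worm paracaspase gene, lies on the other strand with the summit at −277 bp, so the 5 kb window of malt-1 held this summit too. The ceh-38 start is 103.6 kb past the end of egl-27, the gene carried by the transgene.

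The second was at ceh-5, a gene of the NK-like and related classes on chromosome I. Its pooled signal was 36.9, rank 292, with the summit at −1714 bp from the ceh-5 start. The signal there was 12.1 in replicate 1 (rank 311), 8.59 in replicate 2 (rank 3057) and 12.98 in replicate 3 (rank 366). Again replicates 1 and 3 ranked the region among their 524 highest and replicate 2 did not. A second region at −4811 bp, with signal 27.7 and rank 579, missed the IDR list by little, and another of signal 13.9 lay at 27 bp, in the 5' UTR. The stretch upstream of ceh-5 is occupied by other genes. The IDR summit was also in the 3' UTR of eat-16, which encodes a regulator of G protein signalling. The same summit was in an intron of ocrl-1, an inositol phosphatase gene on the minus strand that spans most of ceh-5. The summit at −4811 bp, chrI:9722358, was nearer to the eat-16 start, at chrI:9722716, than to the ceh-5 start, at chrI:9727169.

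The third was ceh-20, the worm homologue of Pbx and Extradenticle, PBC proteins that bind DNA together with Hox proteins. Its region was the last of the IDR list, with signal 28.9 and rank 524, at −833 bp from the start of the gene at chrIII:6979884-6981785. The signal was 13.8 in replicate 1 (rank 193), 9.87 in replicate 2 (rank 1736) and 5.75 in replicate 3 (rank 2120). Only replicate 1 held it among its 524 highest. A second pooled region with signal 17.3, rank 1820, lay next to it at −621 bp. No other protein-coding gene started nearer to the IDR summit, although the 5 kb window of F31E3.6 also held it. The other PBC genes were lower, at 9.79 for ceh-60 and 6.71 for ceh-40.

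**Figure D3:**
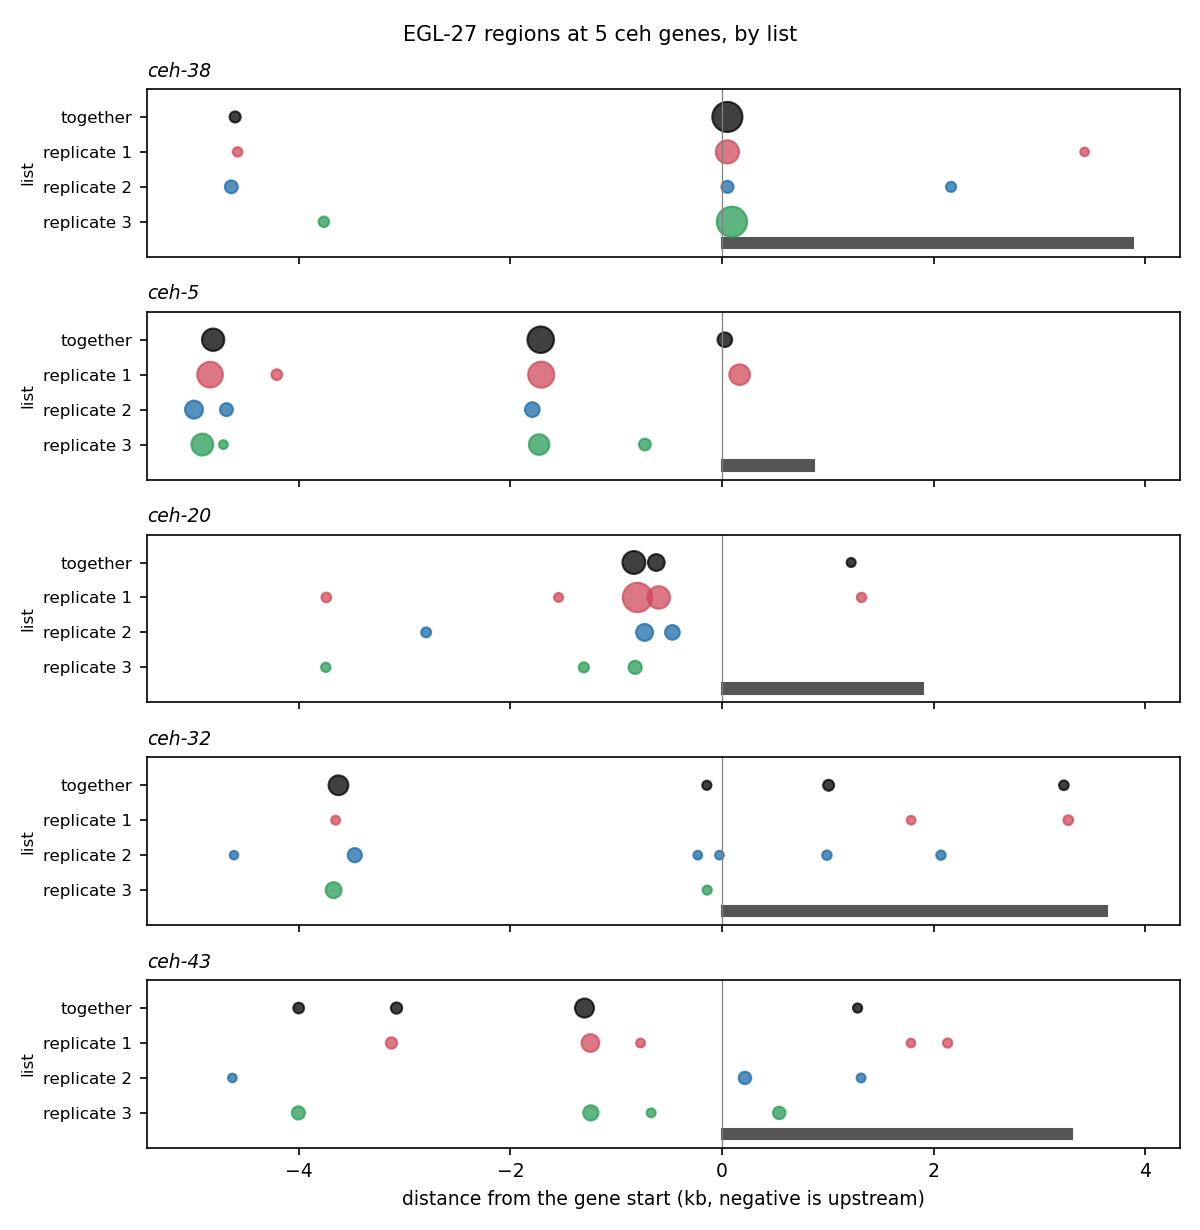
Summits at the 5 ceh genes with the highest pooled regions, by distance from the gene start (x axis, kb, negative upstream) and by list (rows; together is the pooled list, and the grey bar is the gene body). Larger circles stand higher in their own list; the ceh-38 summit at 51 bp is large in replicates 1 and 3 (ranks 499 and 77) and small in replicate 2 (rank 6646).

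Below the IDR list the next genes were ceh-32 and ceh-43. For ceh-32, a gene of the sine oculis class that acts in head development, the pooled signal was 22.5 (rank 950) at −3626 bp. Its signal was 2.70 in replicate 1 (rank 22552), 8.25 in replicate 2 (rank 3562) and 8.34 in replicate 3 (rank 1008), so replicate 1 ranked it far lower than the other replicates did. The summit lay inside the noncoding RNA gene W05E10.19. For ceh-43, the worm Distal-less gene, with roles in the head epidermis and in dopaminergic neurons, the pooled signal was 21.2 (rank 1100) at −1300 bp. Its signal was 7.60 in replicate 1 (rank 1448) and 7.72 in replicate 3 (rank 1198), and replicate 2 had no region at that summit. This summit lay inside the noncoding RNA gene C28A5.8. In both genes, then, 1 replicate of 3 was low or had no region.

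The region assigned to ceh-89, an unclassed gene, had signal 16.1 (rank 2168) at −4961 bp, close to the edge of the window. Its summit lay 25 bp into a tRNA gene, and 5 more tRNA genes started within 2 kb of it. It had no replicate 1 region, a signal of 8.50 in replicate 2 (rank 3155) and of 5.17 in replicate 3 (rank 2616). Of the 56 ceh genes with a pooled region 2, ceh-89 and ceh-2, had their highest region within 500 bp of a tRNA gene. The share over all genes is not given here, so this count cannot be called high or low. At ceh-24, an NK2-type gene used in vulval muscle and in some head neurons, the highest region (15.2, rank 2517) was at −4590 bp, nearer to the start of swan-1 than to its own. It had a signal of 8.82 in replicate 1 (rank 834) and of 9.58 in replicate 3 (rank 757), with none in replicate 2. These ranks are higher than the pooled one, which was 2517. A second pooled region of ceh-24, of signal 13.5 (rank 3491), lay at −666 bp. Replicate 2 had a summit near it, at −682 bp (rank 4116).

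Among the other CUT genes, ceh-21 and ceh-39 lie next to each other on chromosome X and shared 1 region of signal 14.6 (rank 2805). It was at −152 bp from ceh-39, which is known as an X-linked signal in sex determination, and at −3588 bp from ceh-21. Replicate 2 alone had a region at that summit, at rank 8324. The median highest signal of the CUT genes with a pooled region was 14.6, with the region shared by ceh-21 and ceh-39 counted for each. Of the 6 CUT genes 5 had a pooled region, beside 86.9% of all protein-coding genes. The exception was ceh-41, the only ceh gene with no region in any of the lists. The sine oculis class genes ceh-33 and ceh-34 likewise shared 1 region, of signal 12.4 (rank 4420), which was in a coding exon of ceh-33 and at −4047 bp from ceh-34, a gene of pharyngeal neurons. It had rank 992 in replicate 1 and no region in replicate 2 or replicate 3.

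Of the 17 NK-like and related genes, 15 had a pooled region and 8 stood among the 5000 highest. Over all protein-coding genes these shares were 86.9% and 29%. The highest signals of this class had a median of 12.4 and a range from 5.75 to 36.9. The NK2-type genes ceh-22, a regulator of pharyngeal muscle, and ceh-27 had signals of 13.4 (rank 3579, in a coding exon) and 13.03 (rank 3839, at 54 bp, in an intron). The ceh-22 region was matched in replicate 2 alone (rank 4324), and the ceh-27 region in replicates 1 and 3 (ranks 3754 and 13150). A second ceh-22 region, also of signal 13.4 (rank 3582), lay at 2388 bp, where replicate 2 had a summit too (rank 1720). Also in this group, ceh-9 and ceh-23 had signals of 12.99 and 12.8, at ranks 3870 and 3976. The ceh-9 region was matched at rank 19402 in replicate 2 and nowhere else, and the ceh-23 region at rank 25044 in replicate 2 and at rank 7732 in replicate 3. For ceh-16, the worm engrailed gene, active in the seam epidermis, the signal was 12.4 (rank 4423) at −855 bp, with a region in replicate 2 alone at that summit (rank 2044). Of these mid-list regions, the highest ones of ceh-22, ceh-9 and ceh-16 thus rested on replicate 2 alone. The ceh-23 region rested on replicates 2 and 3, and the ceh-27 region on replicates 1 and 3.

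The LIM gene ceh-14, which acts in sensory and other neurons, had signal 13.8 (rank 3229) in its 3' UTR, with ranks of 3525 in replicate 2 and 8686 in replicate 3. The Otx-type gene ceh-37, used in an olfactory neuron, had signal 12.99 (rank 3872) in an intron 7670 bp past its start, with a region in replicate 2 alone (rank 4648). The other 7 paired-like genes were lower, and the class as a whole ran from 5.97 to 12.99. Both POU genes were near the median of all genes, ceh-18 at 9.04 and ceh-6 at 8.91. Of these, ceh-18, which acts in oocyte maturation, had the most pooled regions of any ceh gene, at 7. Its window was also long, at 19431 bp, beside a median of 7735 bp for ceh genes. The 22 unclassed genes had 19 members with a pooled region and 2 among the 5000 highest, ceh-89 and ceh-88. Over all protein-coding genes these shares were 86.9% and 29%. The median highest signal of the unclassed genes was 9.58. With 1 to 17 genes in a class, no class was compared with another by a test.

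No pooled region was listed at 6 ceh genes, namely ceh-12, ceh-28, ceh-41, ceh-81, ceh-82 and ceh-93. They were 9.68% of the ceh genes, beside 13.1% of all protein-coding genes. The first, of the HB9 type, is known for motor neuron identity, and ceh-28 for a pharyngeal neuron. In the replicate lists ceh-12 had 2 regions in replicate 1 and 1 in replicate 2, and ceh-28 had 3 in replicate 1. No region was listed for any of the 6 in replicate 3.

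Replicates 1 and 3 both had ceh-5 and ceh-38 among their 524 highest regions, whereas replicate 2 had no ceh gene there. Among the 524 highest regions of each list, replicate 1 had 3 ceh genes (4.84%, beside 3.92% of all genes), namely ceh-5, ceh-20 and ceh-38. Replicate 3 had 2 (3.23%, beside 3.91%), namely ceh-5 and ceh-38. Replicate 2 had 0, beside 3.78% of all genes, and its highest ceh region was at rank 1196, signal 10.85, at ceh-37. No ceh gene was in all 3 top lists. Among the 1000 highest regions, replicate 1 had 6 ceh genes (9.68%, beside 7.53%), replicate 2 had 0 (beside 6.92%) and replicate 3 had 3 (4.84%, beside 7.27%). Among the 5000 highest regions, replicate 1 had 20 ceh genes (32.3%, beside 31.2%), replicate 2 had 17 (27.4%, beside 30.7%) and replicate 3 had 16 (25.8%, beside 28.1%). Only ceh-5, ceh-16, ceh-20 and ceh-24 were in all 3 of these, not always with the same region. In the whole lists, 57 ceh genes had a region in replicate 1 (91.9%, beside 88.1%), 53 in replicate 2 (85.5%, beside 87.8%) and 34 in the shorter list of replicate 3 (54.8%, beside 57.9%). At 5000 regions and in the whole lists these shares were near those of all genes, whereas replicate 2 had no ceh gene until rank 1196.

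**Figure D4:**
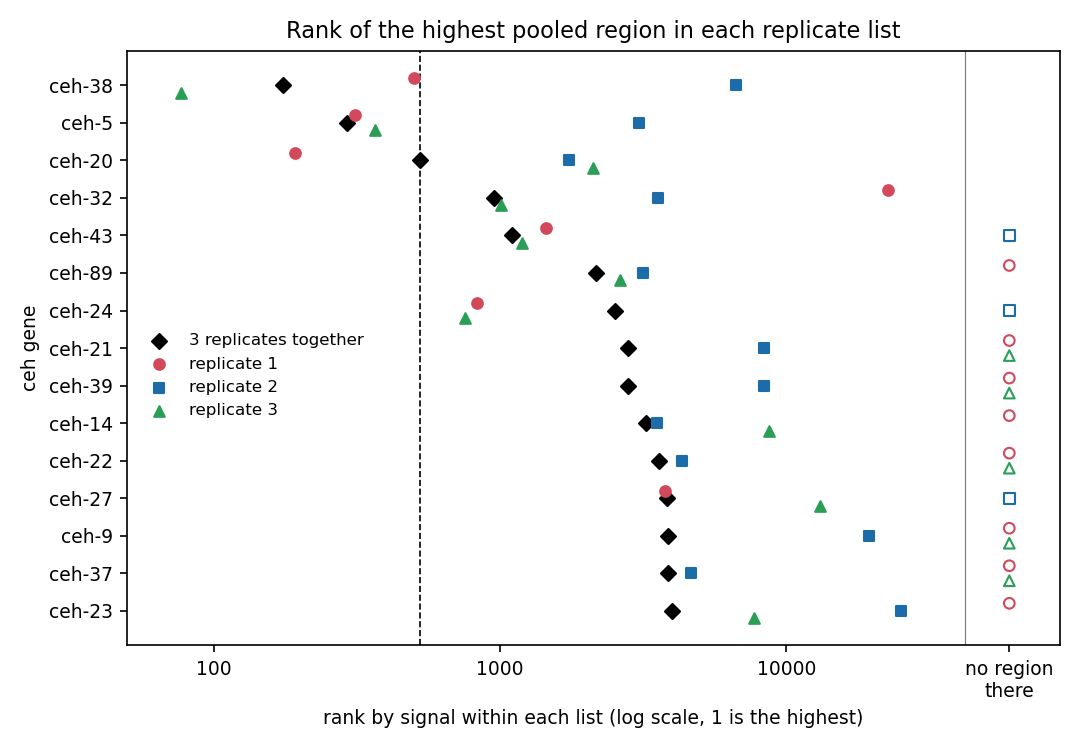
For the 15 ceh genes with the highest pooled regions, the x axis (log scale) gives the rank of that region in the pooled list (diamonds) and in each replicate list, with open symbols at the right where a replicate had no region at the summit. The dashed line is rank 524; ceh-38 and ceh-5 lie on its left in replicates 1 and 3, ceh-20 in replicate 1, and no gene does in replicate 2.

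Few of the highest regions of ceh genes were found in every replicate. The pooled summit fell in a region of all 3 replicate lists for 4 of 56 genes (7.14%), ceh-38, ceh-5, ceh-20 and ceh-32, whereas the share over all genes was 12.7% and that of the IDR regions was 92.0%. It fell in 2 lists for 14 genes (25%), in 1 list for 33 (58.9%) and in none for 5 (8.93%). Over all genes these shares were 30.7%, 47.3% and 9.33%. By replicate, 25 summits had a region in replicate 1, 36 in replicate 2 and 12 in replicate 3. The shares by replicate over all genes are not given here. There were 9 ceh genes that had a highest region with a pooled −log10 q-value over 1.3 (a larger value means a lower false discovery rate), which is 14.5% of the members, while 19.9% of all genes had one. The replicate lists were cut at unlike levels, with a lowest −log10 q-value of 0.158 in replicate 1, 0.0779 in replicate 2 and 2.28 in replicate 3. A match in replicate 1 or 2 can thus be a weak region, such as that of ceh-32 in replicate 1, at 0.339. The counts by replicate are therefore not like measures of support. Most ceh genes, like most protein-coding genes, were represented by regions that the authors' lists keep as input to the IDR step. Thresholded IDR regions lay at 4.84% of ceh genes and at 4.11% of all protein-coding genes.

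The regions were spread over the ceh genes and their upstream sequence. Of 153 pairs of a ceh gene and a pooled summit, 89 (58.2%) were upstream, 30 (19.6%) in an intron, 21 (13.7%) in a coding exon, 9 (5.88%) in a 3' UTR and 4 (2.61%) in a 5' UTR. Over all genes these shares were 63.3%, 18.6%, 14.8%, 1.96% and 1.29%. In the 5 kb upstream the summits fell evenly, with 20, 17, 19, 17 and 16 in successive 1 kb steps from the start. The highest region of 32 of the 56 genes was nearer to the gene's own start than to that of any other protein-coding gene. The others lay nearer to a neighbour. The same share over all genes is not given here, so this count cannot be called particular to ceh genes. With 2.90 pooled regions per 10 kb of window, the ceh genes were close to all genes, at 3.01.

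**Figure D5:**
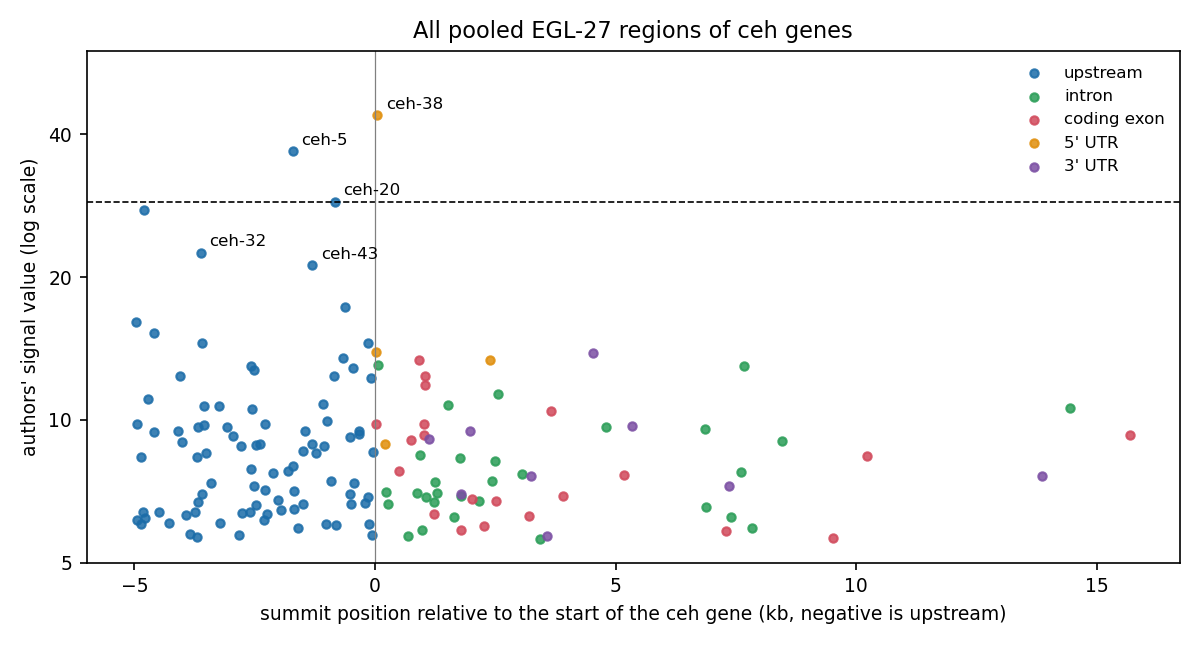
Each point is a pooled summit of a ceh gene, by its distance from the start (x axis, kb, negative upstream) and the authors' signal (y axis, log scale), coloured by annotation. The dashed line is the lowest IDR region (28.9); the points above 20 are within 5 kb upstream or, at ceh-38, at 51 bp, and the intron and coding exon points are lower.

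Short motifs were counted on both strands within 100 bp of the summits, as a description of the sequence. GAGAGA was in 1 of the 3 ceh IDR windows, that of ceh-5, and in 56.5% of all IDR windows. It was in 25 of the 147 distinct pooled windows of ceh genes (17.01%) and in 17.96% of all pooled windows. Among the 53 distinct highest regions of ceh genes it was in 12 (22.6%). Those regions were picked by signal, and the share in the highest regions of all genes is not given here. TAATTA, the core that many homeodomains bind, was in 19 of the 147 distinct pooled windows of ceh genes (12.9%), in 7.72% of all pooled windows and in 2.10% of IDR windows. The GATA site AGATAA, or the same with T as its first or G as its last base, was in 57 of the 147 (38.8%) and in 36.4% of all pooled windows. The E-box CACGTG was in 1 of the 147 (0.680%), in 4.27% of all pooled windows and in 11.3% of IDR windows. The median GC content was 38.3% in the pooled windows of ceh genes, 37.8% in all pooled windows and 47.3% in IDR windows, and the share of a motif can move with it, which was not tested.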

How the data were processed

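EGL-27 ChIP-seq regions came from 1 group, whole L1 larvae in 3 biological replicates. The region lists give no read counts; sequencing depth is therefore unknown and no counting intervals are given. Per the file headers and labels, the authors listed regions per replicate and for the 3 replicates together, against 1 shared control, as input to IDR, and deposited 1 thresholded IDR list; chromatin was sonicated with a microtip. Neither aligner nor peak caller is given in the sources used here. Each region's deposited signal value and deposited −log10 q-value were used as the authors gave them; the latter was 3.17 in every IDR region, so regions were ranked by signal. All coordinates are ce11, 1-based; genes are from Ensembl release 115 and sequence from RefSeq for the same assembly. A summit counted for each gene whose body or 5000 bp upstream held it, so neighbours can share it. A replicate had a region at a pooled summit when one of its regions covered it. The ce10 lists were not used here. The assignment code was checked on simulated regions. Alternatives were other windows, nearest starts, midpoints, overlaps, peak sets, replicates left out and motif windows. Genes named were those with an IDR summit, the 12 next by pooled signal and those with no pooled region; ceh-16, ceh-18, ceh-6, ceh-33, ceh-34, ceh-40, ceh-60, ceh-88 and ceh-2 were named after their values were seen. The members, classes and lists were chosen with earlier results of these data known. Python 3.11.15, numpy 2.4.6, pandas 2.3.3 and matplotlib 3.10.9 were used.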

Additional observations from a re-analysis of the deposited data

How the results depend on the processing

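The 3 ceh genes with an IDR summit stayed 3 with windows of 2000 or 10000 bp upstream, with the nearest start, with midpoints and with any overlap of the region, and were 2 (ceh-20 and ceh-38) with 1000 bp upstream or promoters only. With the gene body only, or with IDR regions above their median signal only, 1 gene and 1 summit were left, that of ceh-38. The 1000 highest pooled regions gave 4 ceh genes with 5 summits, and the 5000 highest gave 19 with 23. IDR was not run again with fewer replicates; IDR regions that both remaining replicates ranked among their 524 highest numbered 216 without replicate 1, 200 without replicate 2 and 187 without replicate 3, and ceh genes, like their summits, then numbered 0 to 2 (ceh-5 and ceh-38 without replicate 2, none without replicate 1 or 3). Over all protein-coding genes, 820 had an IDR summit, and 114 did with the gene body only, 411 with 1000 bp, 533 with 2000 bp and 1246 with 10000 bp upstream, 315 with promoters only, 453 with the nearest start and 400 with IDR regions above the median signal. The 1000 and 5000 highest pooled regions gave 1463 and 5799 genes, and sets without a replicate 290 to 310. These counts moved because the windows or region sets were wider or narrower. Ceh genes in the top lists of all 3 replicates were 0 at 524 and at 1000 regions and 4 at 5000. The count of ceh genes with a pooled region went from 56 to 39, 44 and 59 with the body only, 1000 bp and 10000 bp upstream, and the ceh IDR summits with GAGAGA were 1 with 50 or 200 bp either side. No paired analysis was possible because the study has 1 group. Depth is unknown, so a missing region cannot be read as missing binding.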
